A study of Drosophila melanogaster with 2 samples.

Results

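Candidate binding regions of GFP-tagged Gcm2 were examined at 5 genes that encode tracheal patterning factors: trh (trachealess), rib (ribbon), vvl (ventral veins lacking), salm (spalt major) and salr (spalt-related). They were chosen by name, as 5 of the 13945 annotated protein-coding genes, and a region was assigned to a gene when its summit lay in the gene body or within 5 kb of either end. In this way 49 of the 30000 pooled candidate regions and 1 of the 2177 peaks retained by the irreproducible discovery rate (IDR) were assigned. The candidate lists hold peaks and background together, as input for the IDR step, so a candidate is not by itself a bound region. The study is a single chromatin immunoprecipitation sequencing experiment on Drosophila melanogaster embryos aged 0 to 24 h, with males and females pooled. The embryos came from a line that stably carries Gcm2 with GFP fused to its C terminus, and chromatin, sonicated to 200 to 800 bp, was precipitated with an antibody against GFP. There were 2 libraries, biological replicates 2 and 3, which form 1 group, so no conditions were compared. Whole embryos mix cells of every type, so a weak region shared by many cells and a strong one in few cells cannot be told apart. The labels do not give the promoter that drives the fusion.

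The tracheae are the branched epithelial tubes that carry air through the fly. They form from ectodermal placodes, which invaginate and then send out branches towards a source of the FGF Branchless. The bHLH-PAS factor Trachealess, which pairs with Tango, sets tracheal identity together with the POU-domain factor Ventral veins lacking. Ribbon is a BTB-domain factor needed for tubes to elongate and migrate, and the zinc finger proteins Spalt major and Spalt-related pattern the tracheal system, with Spalt major setting dorsal trunk identity. Gcm2 and its paralog Gcm are zinc-containing factors known for directing glial and blood cell fates.

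The DNA under the candidate summits is shown first for trh, vvl, salm and salr, as windows of 201 bases centred on the summit and read from the plus strand of the dm6 (Release 6) reference, 5′ to 3′. Capitals mark matches, on either strand, to any of 9 motifs searched. The first 4 windows are, for each gene, the strongest pooled candidate whose window holds no untranslated region of any annotated transcript, which leaves out the strongest vvl candidate, coding in some transcripts and untranslated in others. The trh window holds no match, the vvl and salm windows hold the GAGA factor word (GAGAGAG, here as its reverse complement), and the salr window holds none.
trh 3L:377446-377646: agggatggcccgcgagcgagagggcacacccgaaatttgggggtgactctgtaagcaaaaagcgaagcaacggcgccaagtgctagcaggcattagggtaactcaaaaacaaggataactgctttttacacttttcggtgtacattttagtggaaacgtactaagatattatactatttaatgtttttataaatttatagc
vvl 3L:6789714-6789914: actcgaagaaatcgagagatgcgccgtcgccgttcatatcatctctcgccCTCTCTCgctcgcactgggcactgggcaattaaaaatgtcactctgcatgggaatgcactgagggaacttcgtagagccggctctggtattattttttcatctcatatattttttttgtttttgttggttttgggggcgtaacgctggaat
salm 2L:11445857-11446057: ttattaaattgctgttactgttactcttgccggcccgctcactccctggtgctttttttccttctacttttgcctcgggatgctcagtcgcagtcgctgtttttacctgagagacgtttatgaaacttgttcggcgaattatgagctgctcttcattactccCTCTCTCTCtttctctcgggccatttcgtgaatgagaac
salr 2L:11354970-11355170: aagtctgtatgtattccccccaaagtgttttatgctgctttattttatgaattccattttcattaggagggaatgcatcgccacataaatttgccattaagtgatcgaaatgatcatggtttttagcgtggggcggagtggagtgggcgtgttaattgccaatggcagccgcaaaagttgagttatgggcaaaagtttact
Another window, at trh, is shown for its motif content, since it holds the GAGA factor word and both orientations of the core recognised by Trachealess with Tango (TACGTG).
trh 3L:377994-378194: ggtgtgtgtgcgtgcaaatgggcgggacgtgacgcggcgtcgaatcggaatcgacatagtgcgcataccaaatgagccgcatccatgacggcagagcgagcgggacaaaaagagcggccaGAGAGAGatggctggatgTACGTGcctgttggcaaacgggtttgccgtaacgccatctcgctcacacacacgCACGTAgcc

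All 5 genes had pooled candidates, as did 86.3% of protein-coding genes. Only rib had an IDR peak, beside 30.4% of protein-coding genes with at least one. Shares of genes, here and below, were not matched for the length searched. That length ran from 14.8 kb at vvl to 36.1 kb at trh, against a median of 12.2 kb over genes. As a share of candidates, 1 of 49 was in the IDR list (2.04%, 95% Wilson interval 0.361 to 10.7), against 7.26% of all 30000. The median signal, the authors' enrichment value per region, was 20.7 at the 5 genes and 20.5 over the whole pooled list, and 25 of the 49 (51.0%) lay above the median of that list. The deposited q-value was at or below 0.05 for 8 of 49 (16.3%), against 22.7% of all candidates. The weakest IDR peak, at a signal of 57.8, was stronger than every pooled region at trh, vvl, salm and salr. That is not separate from the lack of an IDR peak at these genes. These counts are descriptions, with no test.

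The candidates were unevenly spread, and rib carried many of them. It had 22 of the 49, while trh had 9, vvl and salm had 7 each and salr had 4. Over the 118.281 kb searched, the 5 genes together had 0.414 candidates per kb, against 0.224 per kb over the genome. The median over single genes was 0.338 per kb, and the middle one of the 5, salm, lay just below it at 0.329. Without rib the remaining 27 regions came to 0.278 per kb of 96.962 kb, with a median signal of 19.3. Overlapping regions, each 464 bp long, merged into 34 intervals at the 5 genes and 24793 in the whole list. The 22 regions at rib merged into 13 intervals, those at trh into 6, vvl 5, salm 6 and salr 4. All densities given here count overlapping regions separately, so that of rib rests partly on overlapping calls. The density at rib is met or passed by 89 genes (0.638%), while 4344 genes (31.2%) are as dense as vvl, 7145 (51.2%) as salm, 8574 (61.5%) as trh and 10171 (72.9%) as salr. By the strongest candidate rib was again first and salr last, while trh moved ahead of vvl and salm: 13.7% of genes had one as strong as that of rib, 34.1% as that of trh, 37.0% as that of vvl, 42.1% as that of salm and 66.5% as that of salr.

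**Figure D1:**
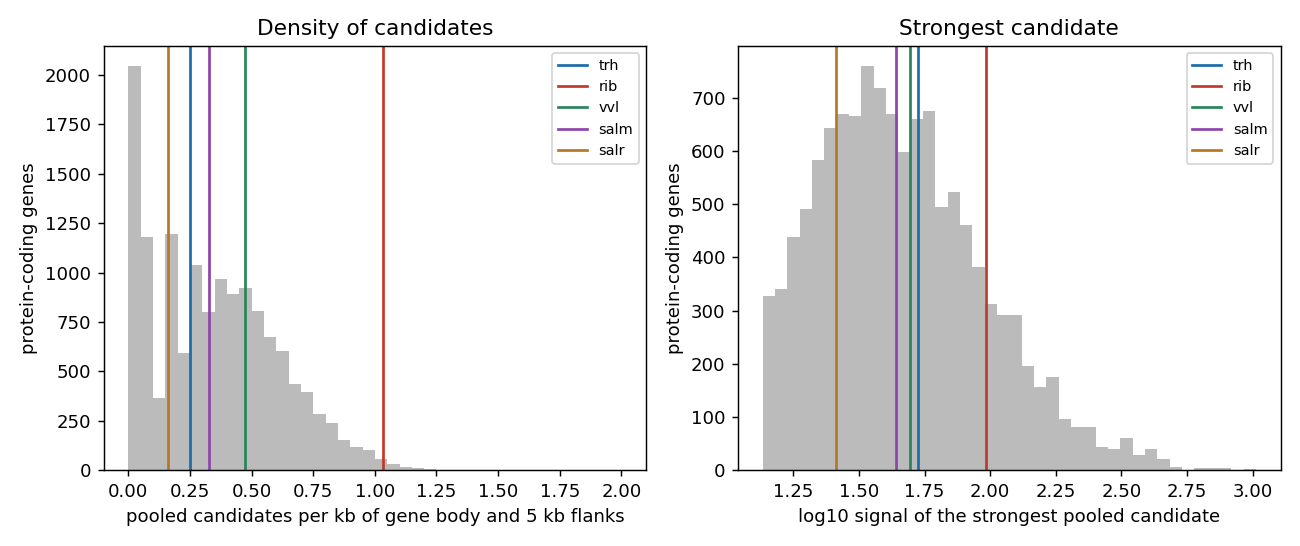
Left, histogram of pooled candidates per kb of gene body and 5 kb flanks for 13945 protein-coding genes; right, histogram of the log10 signal of the strongest candidate for the genes that have one. Coloured lines mark the 5 tracheal factor genes, with rib far to the right on the left panel (1.03 per kb) and salr lowest on both (0.162 per kb).

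Both libraries were then set side by side. Replicate 2 alone gave 40 regions at the 5 genes and replicate 3 gave 49, a mean of 44.5 ± 6.36 (SD, n = 2). The list of each replicate, like the pooled one, holds 30000 regions, so these counts and absences depend on where each list ends. A summit of each replicate lay within 100 bp of the pooled summit for 14 of 49 regions (28.6%, Wilson interval 17.8 to 42.4), against 33.9% of all pooled candidates. Of the others, 13 had a summit from replicate 2 alone, 13 from replicate 3 alone and 9 from neither. The matched regions were the stronger ones, with a median signal of 27.7 against 18.9 for the 35 unmatched; over all candidates these medians were 32.9 and 17.8. Without rib, 5 of 27 (18.5%) were matched in both. Directly between the libraries, 15 of the 40 replicate 2 regions (37.5%) had a replicate 3 summit within 100 bp and 16 of the 49 replicate 3 regions (32.7%) had a replicate 2 summit, beside 33.8% over either whole list. The matches differed among genes, with 9 of 16 replicate 2 regions at rib and 0 of 5 at salm.

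**Figure D2:**
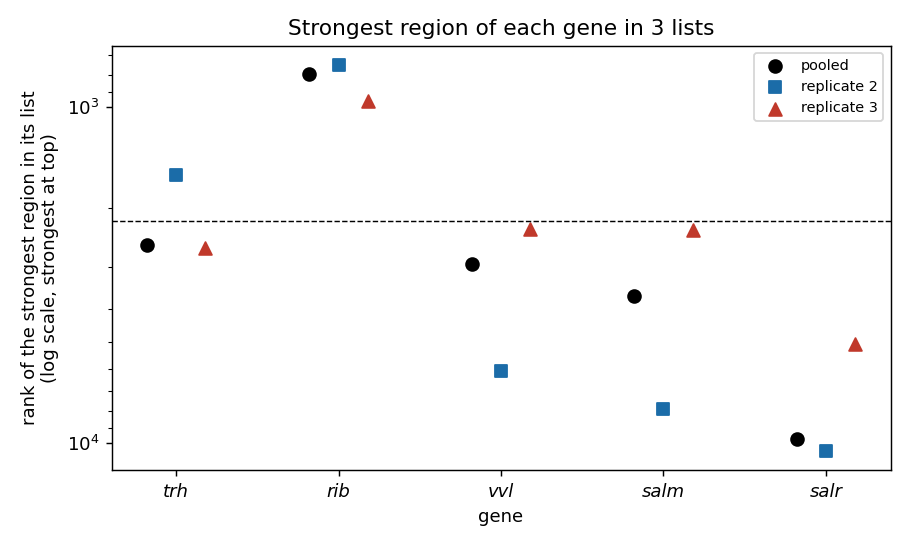
Rank of the strongest region of each gene in the pooled list (circles), replicate 2 (squares) and replicate 3 (triangles), on a log scale with the strongest at the top; the dashed line is rank 2177, the number of IDR peaks. The 3 marks lie above the line for rib (795, 750 and 956), while for vvl, salm and salr the replicate 3 mark lies well above that of replicate 2.

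At rib (FBgn0003254, 2R:19270078-19281396, plus strand, 3 transcripts from 2 start sites) the candidates covered the promoter side, the body and the downstream end, with 7 upstream, 11 in the body and 4 downstream. The IDR peak, 2R:19272130-19272593, lay in an intron 2284 bp inside the gene and had a pooled signal of 96.1 at rank 795. In replicate 2 it had a signal of 52.7 at rank 750, and in replicate 3 a signal of 43.8 at rank 956, with each summit 12 bp from the pooled one. It was thus among the 2177 strongest regions of both libraries. No other rib region exceeded a signal of 41.3, which was reached at 2R:19275055-19275518 (rank 4060), 445 bp upstream of the internal start site. The region at 2R:19271280-19271743 in an intron followed with 40.1 (rank 4269). At both of these a replicate 2 summit was close, 8 and 18 bp away, while the nearest replicate 3 summit was 244 and 214 bp away. The promoter region proper, 269 bp upstream of the gene start, was weak at 18.1 (rank 19046), although both replicates had a summit within 12 bp. Signal over the 22 regions ran from 13.8 to 96.1 with a median of 22.7, and 3 had a q-value at or below 0.05. The median gap between neighbouring summits was 780 bp. Of the 4 downstream regions, 3 lay inside CG11906 and 1 inside CG10474, so their assignment to rib is shared. Regions here also fell within 5 kb of tbrd-2, AANATL4, AANATL5, AANATL6 and Fkbp12.

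At trh (FBgn0262139, 3L:366524-392633, minus strand, 7 transcripts from 2 start sites) the strong candidates sat at the internal start site, in the middle of the gene. The strongest, 3L:377314-377777, lay 230 bp upstream of that site with a pooled signal of 53.0 at rank 2567, and its summit window is the first sequence above. Replicate 2 had it 20 bp away at rank 1587 with a signal of 36.2, within its own top 2177, while the nearest replicate 3 summit was 238 bp away at rank 2669 with a signal of 26.0. That replicate 3 summit coincided with the adjoining pooled region, 3L:377552-378015, which had a signal of 49.2 at rank 2956 and a replicate 2 summit 15 bp away at rank 3972. Another overlapping region, 3L:377862-378325, was weak in the pooled list (18.8, rank 17729), but its replicate 3 summit, 8 bp away, was the strongest of trh in that library at rank 2619. The nearest replicate 2 summit was 325 bp from it. The libraries thus put their strongest trh summits at opposite ends of the same cluster of overlapping regions. In replicate 3 this rests on a near tie, with a signal of 26.3 at rank 2619 and 26.0 at rank 2669. The other start site, at the gene's 5′ end, had no pooled candidate in the 5 kb upstream, and the closest one lay 9376 bp into the gene. Over the 9 regions signal ran from 15.5 to 53.0 with a median of 19.3. Both downstream regions lay in coding exons of CG1233 and also within 5 kb of CG13884 and Cdc5, one of them near Roc1b as well. The nearest IDR peak, 3L:348058-348521, lay 18.2 kb away in an intron near the start of Ptpmeg, with a signal of 70.9 at rank 1464.

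At vvl (FBgn0086680, 3L:6790158-6794941, plus strand, 5 transcripts from 1 start site) the strongest candidate was in the coding exon. It lay at 3L:6792458-6792921, 2532 bp from the start site, with a pooled signal of 49.4 at rank 2934. Both libraries had a summit within 11 bp, at rank 6109 in replicate 2 (signal 18.3) and rank 2306 in replicate 3 (signal 28.0). The promoter held an overlapping pair, 3L:6789582-6790045 with a signal of 31.0 at rank 6823 and 3L:6789799-6790262 with 28.8 at rank 7855. Replicate 3 had a summit 2 bp from the second of the pair, at rank 3634, but 215 bp from the first. The nearest replicate 2 summit was 1823 bp or more from either. Thus the first, whose window is printed above, had a summit of neither library within 100 bp. The other 4 regions were intergenic and downstream. The nearest IDR peak was intergenic, 21.5 kb away at 3L:6816175-6816638 (signal 64.5, rank 1736).

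The spalt genes lie near each other on chromosome 2L, and the strongest candidate of each was weaker than that of the other 3 genes. Median signal was 16.0 at salm and 22.7 at salr, which at salr was close to that of rib. At salm (FBgn0261648, 2L:11434311-11445614, minus strand, 2 transcripts from 1 start site) the strongest were at the promoter. The region 2L:11445725-11446188, 343 bp upstream of the start site, had a pooled signal of 43.7 at rank 3640, and 2L:11445453-11445916, 71 bp upstream, had 33.8 at rank 5808. Both were close to a replicate 3 summit, at 11 bp with rank 3849 and at 59 bp with rank 2323, whereas the nearest replicate 2 summit was 187 and 459 bp away at rank 7887. The salm promoter was therefore placed alike by the pooled list and replicate 3, and differently by replicate 2. None of the 7 salm regions had a summit of both replicates within 100 bp. The body held 1 candidate, with a signal of 16.0 at rank 23271. At salr (FBgn0000287, 2L:11358873-11373636, plus strand, 3 transcripts from 2 start sites) the strongest of 4 regions was intergenic, 2L:11354838-11355301, at -3803 bp from the gene start, with a signal of 25.8 at rank 9702. It had replicate 3 at 19 bp (rank 10291) and replicate 2 at 111 bp (rank 16250). A region in an intron, 2L:11362985-11363448, followed with 24.5 (rank 10639), with replicate 3 at rank 5409 and the nearest replicate 2 summit 3784 bp away. The region at the start site, 369 bp inside the gene, had 20.9 at rank 14500. The fourth, 4826 bp upstream at the promoter of lncRNA:CR44586, had 18.9 at rank 17588. None of the 4 passed a q-value of 0.05. The nearest IDR peak to both genes was 2L:11208841-11209304 near ab (signal 64.6, rank 1728), 149.8 kb from salr and 225 kb from salm.

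**Figure D3:**
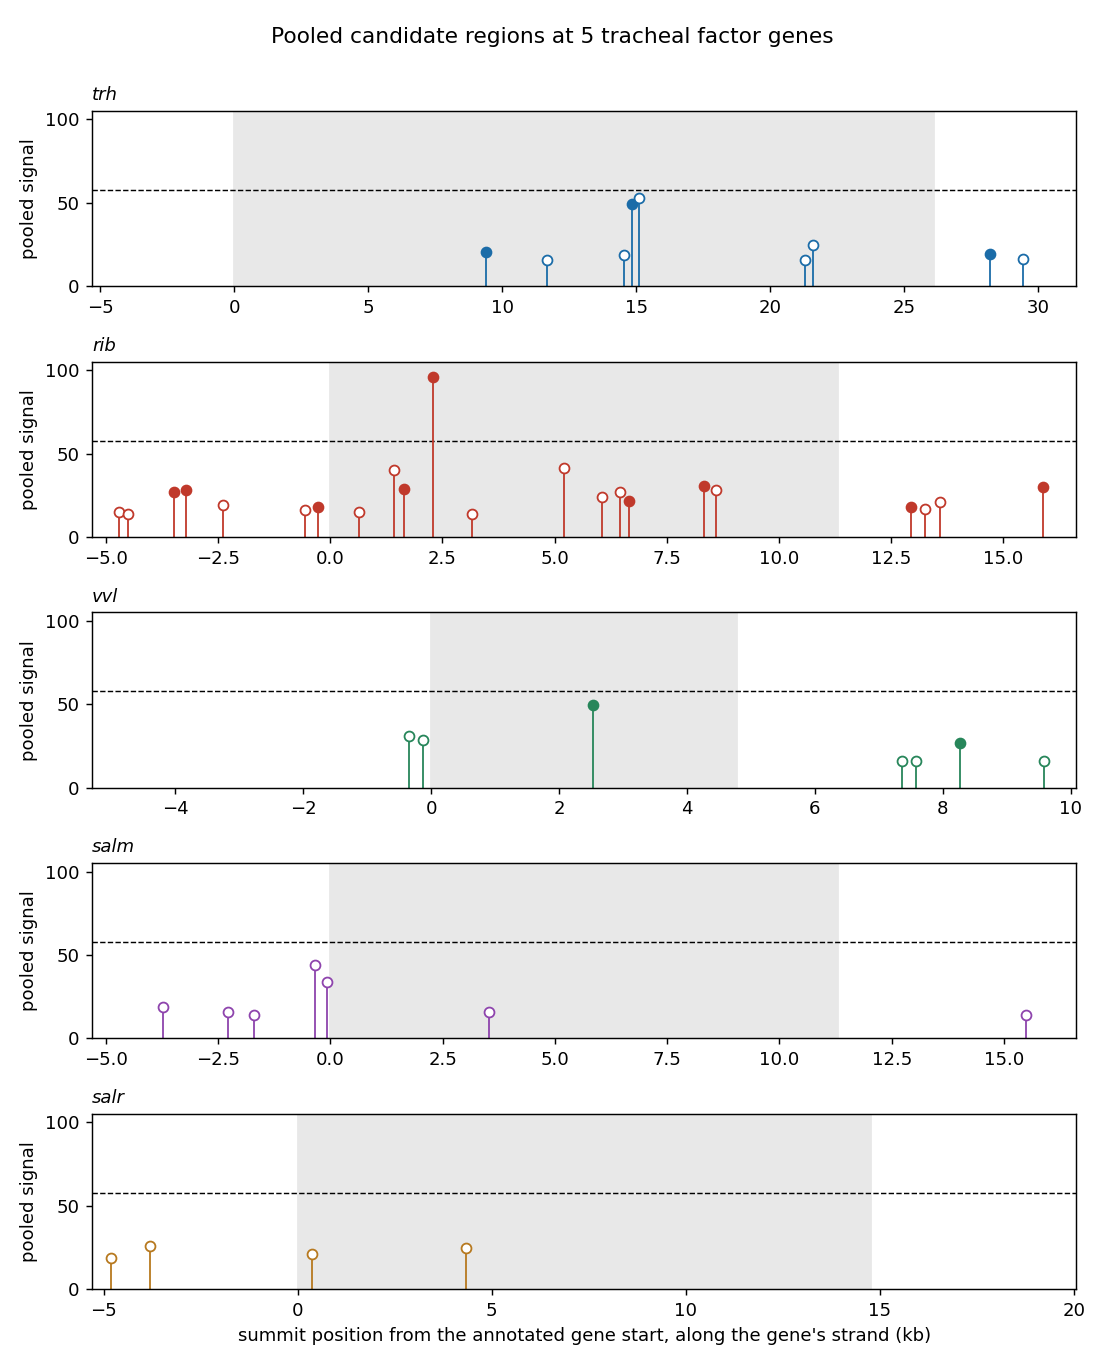
Pooled signal (vertical, authors' enrichment value) of the 49 candidate regions by summit position along each gene's strand, in kb from the annotated gene start; grey shading is the gene body. Filled circles have a summit of both replicates within 100 bp and open circles do not, and the dashed line is the weakest IDR signal (57.8), which a single rib region passes at 96.1.

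Regions just inside and just outside the 5 kb limit were as follows. The outermost region inside it had a signal of 16.0 at trh (3333 bp out), 14.9 at rib (4708 bp), 16.0 at vvl (4798 bp), 14.2 at salm (4178 bp) and 18.9 at salr (4826 bp). The first one outside had 28.4 at trh (5076 bp), 37.7 at rib (8776 bp), 14.8 at vvl (5070 bp), 15.9 at salm (5744 bp) and 19.7 at salr (9350 bp). None of the 10 was an IDR peak.

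By position, 13 of the 49 regions (26.5%) were at promoters, within 500 bp of an annotated start site of any gene, non-coding RNAs included, against 32.9% of all candidates. Intergenic regions also numbered 13 (26.5%), against 12.7% of all candidates, and 6 of them were at rib and 4 at vvl. Introns held 13 (26.5%, against 33.6%), coding exons 9 (18.4%, against 16.4%) and a 5′ UTR 1. In all, 16 regions lay inside or within 5 kb of another protein-coding gene, 6 of them inside it, and all were at trh and rib. The summit windows had a median GC content of 46.3%, against 43.8% over all candidates.

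**Figure D4:**
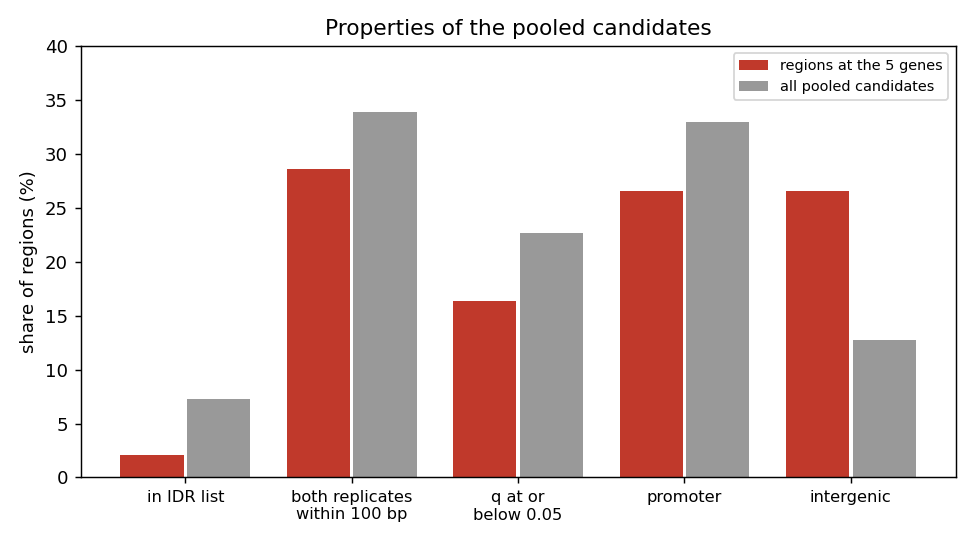
Share (%) of the 49 pooled candidates at the 5 genes (red) and of all 30000 (grey) that are IDR peaks, have a summit of both replicates within 100 bp, have a q-value at or below 0.05, lie at promoters or are intergenic. The red bar is the lower of each pair except for intergenic regions (26.5% against 12.7%).

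Motif matches were counted in the summit windows. A GCM octamer (ATACGGGC, ATACGGGT, ATGCGGGC or ATGCGGGT), the kind of word Gcm proteins bind, was in 1 of 49 regions (2.04%), against 1.54% of all candidates; the strict form ATGCGGGT was in 0 of 49, which allows a share of up to 6.12%, against 0.477%. The GAGA factor word was in 4 (8.16%, against 4.12%), at trh, vvl and salm, where both salm regions are upstream of the gene. The Trachealess and Tango core was in 5 (10.2%, against 4.71%), of which 3 were at rib and 1 each at trh and salm. The octamer of POU factors, the family of Vvl (ATGCAAAT), was in 2 rib regions (4.08%, against 2.56%). The homeodomain core TAATTA was also in 2 rib regions (4.08%, against 10.6%). A GATA word (AGATAA or AGATAG or TGATAA or TGATAG) was in 15 (30.6%, against 29.9%), 8 of them at rib, the IDR peak included. Neither the DRE (TATCGATA, against 1.67%) nor the Zelda word (CAGGTAG, against 1.37%) was found, with the same limit of 6.12%. For every motif but GATA, at most 5 of the 49 regions held it.

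Other genes, either of tracheal development or related to the 5 factors by domain, were counted the same way, from lists of 41 genes. An IDR summit lay at 12 of them (29.3%), near the share over all genes given above. The lengths searched, from 11.7 kb at pck to 104 kb at heca, were not matched to the median of 12.2 kb over all genes. A pooled candidate lay at 40, the exception being kni, which both replicates nonetheless list at ranks 18101 and 12568. In FGF signalling 3 of 5 genes had an IDR summit: pnt, an ETS factor (signal 131, rank 420), sty, an antagonist of receptor signalling (92.1, rank 866), and stumps, an adaptor of FGF receptors (72.8, rank 1395). The pnt peak lay in the gene body, while those of sty and stumps lay in the 5 kb flanks, that of sty intergenic. The ligand bnl (48.5, rank 3033) and the receptor btl (21.1, rank 14179) had none. Among 10 other regulators, most of them transcription factors, grh (111, rank 600), apt (94.7, rank 818) and heca (80.0, rank 1167) had one, and the Trachealess partner tgo had none (54.2, rank 2447). Among 8 signalling genes these were the BMP ligand dpp (60.7, rank 1958) and Stat92E (99.1, rank 753), and among 8 tube genes the claudin gene pck (72.5, rank 1405). Of 12 genes related to the tracheal factors by domain, tgo and dysf among them, 3 had one: the PAS gene sim (74.5, rank 1332) and the BTB genes lola (132, rank 417) and bab2 (73.9, rank 1355). Candidate density over these genes had a median of 0.342 per kb. With its 1.03 per kb, rib was denser than each of the 41, of which ttk was the densest at 0.698.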

How the data were processed

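Per the labels and deposited file lists, candidate regions were called by the authors from each replicate's alignments and from both pooled, with a control file, and the IDR list was derived from them. The deposited signal is the authors' enrichment value, the deposited −log10 q-value is theirs too, and summits come from the deposited offsets. The IDR cutoff, aligner and caller were not given in the sources used here. Read depth is unknown, a mock or untagged control was not analysed here, and dm3 lists were not used.

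Summits were placed on dm6 with Python 3.11.15, numpy 2.4.6, pandas 2.3.3 and scipy 1.17.1 (plots: matplotlib 3.10.9), using Ensembl 115 genes. Signal ranks were taken within each of 4 lists, and signals were not compared between lists. Wilson intervals (95%) and the limit for a count of 0 (3 counts) cover counting error only. They treat regions as independent, although the 49 overlap in part and merge into 34 intervals, so they may be too narrow. The genes and lists were chosen with earlier results of these data known, so no test was made. Named besides the 5 genes were listed genes with an IDR summit and up to 3 strongest others per list, and neighbours sharing a region; mega was read as pck and hdc as heca. The counting steps were tested on simulated regions. Alternatives changed the flank, list, match distance, q-value and motif window. The sequence and position of 1 candidate region are not reported here.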

Additional observations from a re-analysis of the deposited data

How the results depend on the processing

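The count of 49 pooled candidates at the 5 genes became 28 within 1 kb of the genes, 22 in gene bodies alone and 8 at a q-value at or below 0.05. The density of 0.414 per kb became 0.358 within 1 kb and 0.322 in bodies alone, and 0.338 to 0.414 without one replicate; the median signal of 20.7 became 25.9 within 1 kb and 24.6 in bodies alone. Without one replicate it ran from 10.7 to 13.1 on the scale of each single list, which is 0.950 and 1.14 times that list's median. Regions with a summit of both replicates numbered 14 as reported (28.6%, against 33.9% of all candidates). They numbered 23 when 250 bp was allowed (46.9%, against 50.8%) and 11 with 50 bp (22.4%, against 22.8%). Within 1 kb of the genes there were 8 of 28 (28.6%) and in bodies alone 7 of 22 (31.8%), so the share changed less than the count. The 1 region with a GCM octamer became 0 with 50 bp each side, 3 with 250 bp, 0 within 1 kb, 0 in bodies alone and 0 to 1 without one replicate. Shares over all candidates with 50 or 250 bp each side are not given here, so those counts cannot be set beside a background. The IDR peak of rib remained at every flank and in the upper part of the list. Lying 2284 bp inside the gene and at rank 795 of 2177, it could not have been lost under these settings. The IDR list was derived from both replicates. With the 2177 strongest regions of a single replicate in its place, the count ran from 1 to 2. The second region was at trh in replicate 2 and is not an IDR peak. The best rank of salm was 23271 in its body alone; without replicate 3 that of vvl was 6109 and that of salm 7887, and without replicate 2 that of salr was 5083. The cause of these moves was not tested beyond the smaller window, list or distance itself. With 2 libraries, 1 group and unknown depth, a region missing from a list cannot be called unbound, and regions in flanks may belong to neighbouring genes.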
